A study of Mus musculus with 6 samples.

Results

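Cell cycle and DNA replication genes encode the proteins that copy the genome and divide the cell. Of 46 such genes chosen as members, 35 were measured, each by 1 probe, out of 9542 genes that could be named on the arrays. Members were found by the symbol in the probe's description, or by the accession of the probe's transcript record matched to a current symbol. For 7 further members (Mki67, Cdc20, Cdk4, Prim1, Plk4, Aurka and Tyms) the probe gave the gene in words only, so their values are kept apart. The exception is 1 Tyms probe, whose older symbol was matched to another entry. Aurkb, Bub1, Mcm3 and Kif11 were not matched to a probe and are not analysed here.

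RNA of mouse liver and liver tumour was hybridised to 6 Agilent arrays with a Cy3 and a Cy5 channel, in 3 pairs of arrays with the dyes swapped. The first pair set tumours of wild-type (WT) mice against liver of mice lacking the nuclear receptor CAR (CAR-KO), which Nr1i3 encodes. The second set CAR-KO liver against WT liver, and the last pair set CAR-KO liver with phenobarbital (PB) against CAR-KO liver without it. All groups were 39 weeks old, of the C3H/HeNCrlBR(C3He) strain, and had received diethylnitrosamine (DEN), a carcinogen that starts liver tumours. PB, a CAR activator that promotes such tumours, was given in the drinking water to every group but the one named without it. The tumour samples are labelled only as tumour after DEN and PB, and are read here as WT because the study's labels mark CAR-KO tissue as such. The series sought genes controlled by CAR and induced in liver tumours. Neither shared extracts nor pooling of animals is stated. The p-values use a spread per probe that the 3 pairs share, estimated from all 6 arrays. It comes from how the arrays of each pair differ beyond a shared dye effect, pooled over the 3 pairs, so it is not that of any single pair. It may be technical, and the number of arrays limits the precision.

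Before a cell divides, it loads the MCM helicase on DNA in G1, is driven into S phase by cyclin E, cyclin A and Cdk2, and enters mitosis with cyclin B, Cdk1 and the kinase Plk1. E2F factors switch on many replication genes ahead of S phase, and FoxM1 switches on many mitotic genes later. Most hepatocytes of an adult liver rest outside this cycle, and transcripts of these genes are commonly used as signs of proliferation in liver tumours. In bulk RNA, fewer cycling cells and less RNA per cell cannot be told apart.

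Array 2 of the tumour pair, read on another scanner, had a median background of 288 in Cy3 and 299 in Cy5, and the remaining 5 arrays had 53 to 62. Between 28 and 35 of the 35 members were well above background in each channel. Over all probes, the turned ratios of the arrays of a pair correlated at r = 0.39 for tumour over CAR-KO liver, r = 0.03 for CAR-KO over WT liver and r = -0.35 for PB over no PB, a description across probes that share arrays and a dye effect. Nr1i3 had a log2 ratio of 1.81 ± 0.16 (SE) in WT tumour over CAR-KO liver (limma adjusted p = 0.00194) and of -0.79 ± 0.16 in CAR-KO over WT liver (adjusted p = 0.412). Where its probe sits relative to the deletion is not given, so the values do not test the genotypes. Hepatocyte markers (Ttr, Apoa1 and Hnf4a, the 3 of 6 measured) were above background in every channel.

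In tumours of WT mice, set against liver of CAR-KO mice given the same agents, 5 of 35 members rose and 0 fell. The groups of this pair differ in both tissue and genotype, which cannot be told apart here. The 5 were the helicase subunits Mcm4, Mcm6 and Mcm7, Rrm2, a subunit of the enzyme that makes deoxyribonucleotides, and Plk1. Their fitted ratios lay between 2.02-fold and 2.35-fold. The share of members that rose was 14.3%, against 2.53% of all 20744 probes tested, and 0.839% of all probes fell (limma, Benjamini-Hochberg adjusted p under 0.05, 2-sided). The median log2 ratio of the members was 0.27, against -0.01 over all probes, and 25 of 35 members (71.4%) had a positive ratio, against 49.4% of all probes. At an unadjusted p under 0.05, 16 members were higher and 2 lower, where 11.4% and 12% of all probes were.

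Among the 7 genes kept apart, 3 more rose, where 2.53% of all probes did. Their probes were added after seeing the data. Mki67, whose protein Ki-67 is the standard stain for cycling cells, had the highest ratio of all 42 members with a probe, 3.36-fold. Cdc20, which activates the anaphase-promoting complex, and the spindle kinase Aurka rose as well. With these probes added, 8 of the 42 members with a probe were called higher.

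**Figure D1:**
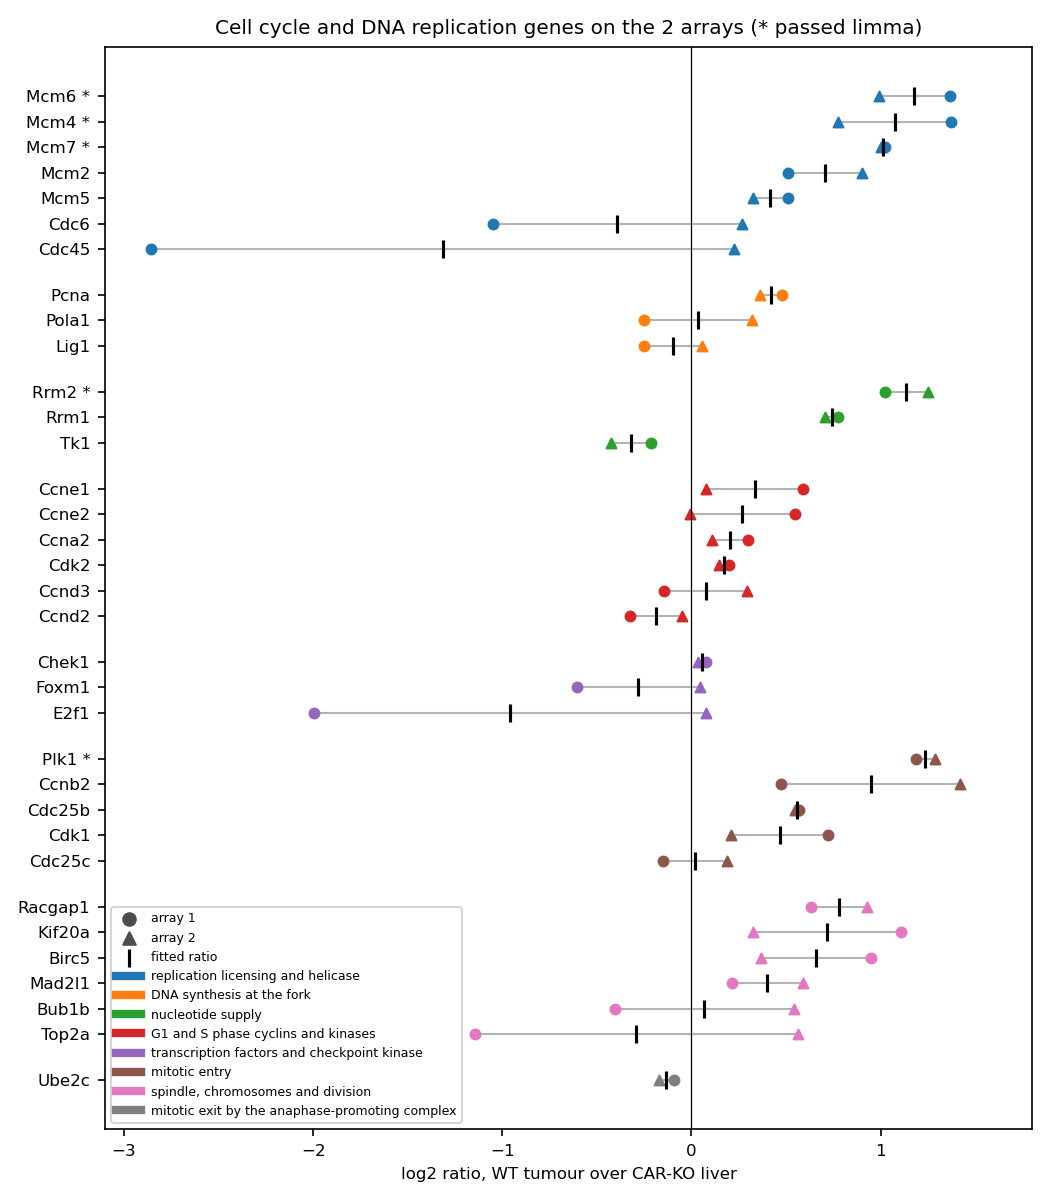
Log2 ratio of WT tumour over CAR-KO liver (x axis) for 34 of the 35 measured members (y axis), grouped by role, with circles for array 1, triangles for array 2 and a bar for the fitted ratio, which is their mean. The 5 starred members passed the test and are positive on both arrays, while Cdc45 and E2f1 lie far left on array 1 only.

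The MCM complex is a ring that unwinds DNA at the fork. Normalised intensity of Mcm6 was 652 and 884 in WT tumour on arrays 1 and 2, against 253 and 445 in CAR-KO liver. The log2 ratio was 1.37 and 0.99 on the 2 arrays, with a fit of 1.18 ± 0.17 (SE, adjusted p = 0.0133). Mcm4 had intensities of 185 and 228 in WT tumour, against 71.3 and 133 in CAR-KO liver. Its ratios were 1.37 and 0.78, with a fit of 1.08 ± 0.15 (adjusted p = 0.013). For both genes each tumour channel was brighter than either CAR-KO liver channel. Genes called on these same arrays would mostly separate so. Mcm7 gave the most even pair, at 376 and 387 in WT tumour, against 185 and 193 in CAR-KO liver. Its ratios were 1.02 and 1.004, with a fit of 1.01 ± 0.15 (adjusted p = 0.0155).

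The other licensing factors did not pass the test. Mcm2 had a ratio of 0.71 ± 0.17 (adjusted p = 0.0796) and Mcm5 of 0.42 ± 0.16, both positive on each array. Cdc6, which loads the MCM ring, had -0.39 ± 0.23 and was above background in 3 of 12 channels. Cdc45, which joins the MCM ring to form the active helicase, had the lowest ratio of all members, -1.32 ± 0.42 (adjusted p = 0.134). It read 65.3 and 72.5 in WT tumour, against 472 and 62.1 in CAR-KO liver, so the low ratio came from array 1 (-2.85) and array 2 gave 0.22.

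At the fork itself, no member passed. Pcna, the sliding clamp of DNA polymerases, had a ratio of 0.42 ± 0.17 (adjusted p = 0.189), positive on both arrays. Pola1, the catalytic subunit of the polymerase that starts each new strand, had 0.04 ± 0.19, and Lig1, the ligase that joins lagging-strand fragments, had -0.10 ± 0.18. Prim1, the primase that works with Pola1 (in words only), had 0.38 ± 0.23.

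Ribonucleotide reductase, which supplies deoxyribonucleotides, has a large subunit (Rrm1) and a small, cell-cycle-regulated one (Rrm2). Rrm2 read 123 and 181 in WT tumour, against 60.55 and 76.2 in CAR-KO liver, and each tumour channel was brighter than both liver channels. Its ratios were 1.02 and 1.25, with a fit of 1.14 ± 0.17 (adjusted p = 0.0167). Rrm1 had 0.74 ± 0.21, short of the threshold (adjusted p = 0.104), with 0.78 and 0.71 on the arrays. Tk1, the thymidine salvage kinase, had -0.32 ± 0.21 and was negative on both arrays. Thymidylate synthase (Tyms, kept apart) had 0.16 ± 0.22 and 0.17 ± 0.17 on its 2 probes, each of opposite sign on the arrays. The probe with 0.16 carried an older symbol that was matched to another entry, on chromosome 6. The reference also lists a Tyms pseudogene.

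G1 and S phase cyclins and kinases gave small ratios, none of which passed. The 6 measured ones ran from -0.19 (Ccnd2, a D-type cyclin) to 0.34 (Ccne1, an E-type cyclin), with a median of 0.19. Between them lay Ccnd3 at 0.07, Cdk2, the kinase of cyclins E and A, at 0.17, Ccna2 at 0.20 and Ccne2 at 0.27. Cdk4, the kinase of D-type cyclins, in words only, read -1.11 on array 1 and 0.81 on array 2, with a fit of -0.15 ± 0.35.

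The regulators of transcription and the checkpoint kinase also did not pass. E2f1, an activator of S phase genes, had the second lowest member ratio, -0.96 ± 0.38 (adjusted p = 0.189). It read 71.15 and 77.9 in WT tumour, against 284 and 73.97 in CAR-KO liver, so its ratio was -1.996 on array 1 and 0.07 on array 2. Foxm1, an activator of mitotic genes, had -0.28 ± 0.24 and was of opposite sign on the arrays. Chek1, a kinase that halts the cycle after replication stress, had 0.06 ± 0.16.

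Plk1, which drives mitotic entry and spindle assembly, had the highest ratio of the 35 members. It read 346 and 259 in WT tumour, against 152 and 106 in CAR-KO liver. The log2 ratios of 1.18 and 1.29 gave a fit of 1.24 ± 0.16 (adjusted p = 0.00824). Both tumour channels were brighter than both liver channels. Ccnb2, a B-type cyclin, had 0.95 ± 0.21 (adjusted p = 0.0563), with 0.47 on array 1 and 1.42 on array 2. Cdc25b, a phosphatase that activates Cdk1, had 0.56 ± 0.16, Cdk1 itself 0.47 ± 0.17 and its activator Cdc25c 0.02 ± 0.17.

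The 6 spindle and chromosome genes among the 35 measured members missed the threshold. Racgap1, a regulator of cytokinesis, came closest with 0.78 ± 0.17 (adjusted p = 0.054). Kif20a, a kinesin of cell division, had 0.72 ± 0.29, Birc5 (survivin, of the chromosomal passenger complex) 0.66 ± 0.18 and Mad2l1, a spindle checkpoint protein, 0.40 ± 0.15. All 4 were positive on both arrays. Bub1b, of the same checkpoint, had 0.07 ± 0.21 and Top2a, which untangles DNA before division, -0.29 ± 0.22, each of opposite sign on the arrays. Ube2c, the ubiquitin-conjugating enzyme of the anaphase-promoting complex, had -0.13 ± 0.17.

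Mki67 read 358 and 426 in WT tumour, against 108 and 125 in CAR-KO liver. Its ratios were 1.73 and 1.77, with a fit of 1.75 ± 0.15 (adjusted p = 0.00192). Cdc20 read 589 and 609 in WT tumour, against 211 and 345 in CAR-KO liver, with ratios of 1.48 and 0.82 and a fit of 1.15 ± 0.17 (adjusted p = 0.0159). Aurka read 398 and 338 in WT tumour, against 249 and 160 in CAR-KO liver, with ratios of 0.68 and 1.08 and a fit of 0.88 ± 0.18 (adjusted p = 0.0433). In all 3 genes the tumour channels did not overlap the liver channels. Such separation, here and in the called genes above, follows largely from calls made on these same arrays and adds no evidence. The share of all probes that separate so was not counted. Plk4, the kinase of centriole duplication, had 0.17 ± 0.19.

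**Figure D2:**
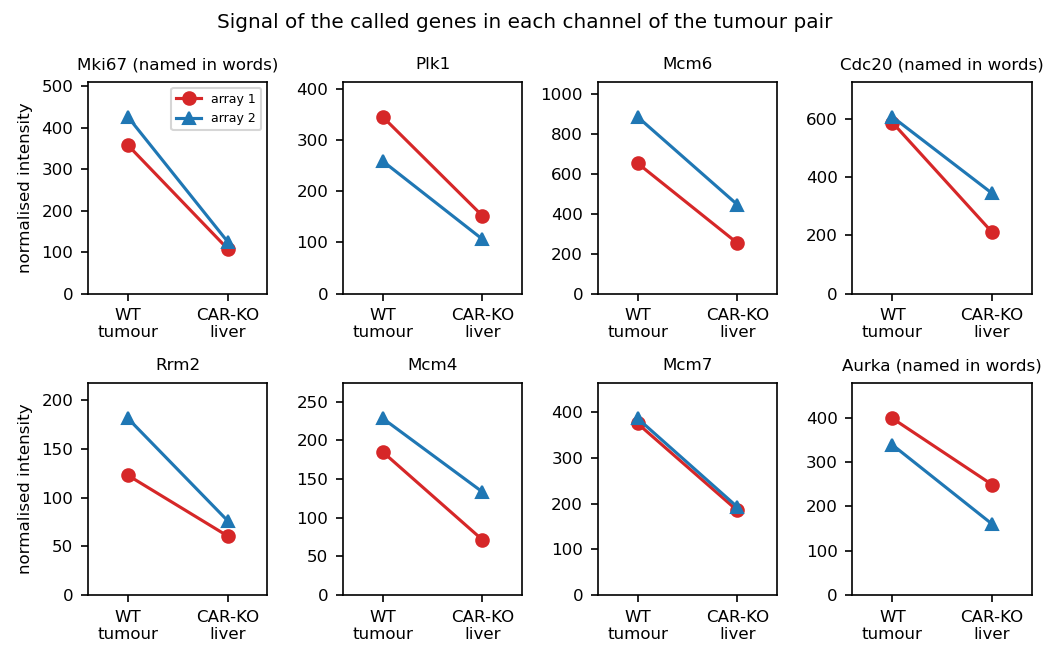
Normalised intensity (linear scale, y axis from 0) in WT tumour and CAR-KO liver on array 1 (circles) and array 2 (triangles) for the 8 genes that passed the test. In all 8 genes the WT tumour points lie above the CAR-KO liver points. Mki67 is at 358 and 426 in WT tumour and at 108 and 125 in CAR-KO liver. The genes were called on these same arrays.

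Members with dim probes read lower than the rest on array 1. The 27 members above background in all 12 channels had a median ratio of 0.51 on array 1 and 0.32 on array 2, and 22 of their fitted ratios were positive. The 8 others, above background in 3 to 11 channels (Cdc6, Cdc45, Mcm2, E2f1, Foxm1, Top2a, Bub1b and Mad2l1), had a median of -0.83 on array 1 and 0.40 on array 2. Of these 8, 6 were negative on array 1 and 0 on array 2, and of the 27, 7 and 5 were. The share of all dim probes with this pattern was not counted. It was not limited to dim probes, as Cdk4 (in words only), above background in all 12 channels, read -1.11 and 0.81. Over all 35 members, 20 were positive on both arrays, 3 negative on both and 12 of opposite sign. Of all probes 30.6% were positive on both and 28.5% negative on both. The fitted low ratios of Cdc45 and E2f1 therefore rest on array 1 alone, and what set that array apart was not tested.

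The calls depended on the processing. With signals as processed by the Agilent software 0 of 35 members passed, and 0% of all probes did. A fit on the tumour pair alone also gave 0 members, where 0.255% of all probes were higher and 0.0434% lower. With either array of the PB pair left out only Plk1 passed, where 1.05% of all probes were higher and 0.323% lower. Without array 2 of the tumour pair, 10 members were higher and 5 lower (Cdc45, Cdc6, E2f1, Foxm1 and Top2a), where 8.67% and 14% of all probes were called, and without array 1, 8 were higher, where 2.56% of all probes were. The 8 called genes kept a positive ratio under all 16 alternatives. Plk1 and Mki67 passed in 14 of them, the 3 called MCM genes and Rrm2 in 10 each, Cdc20 in 9 and Aurka in 5.

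**Figure D3:**
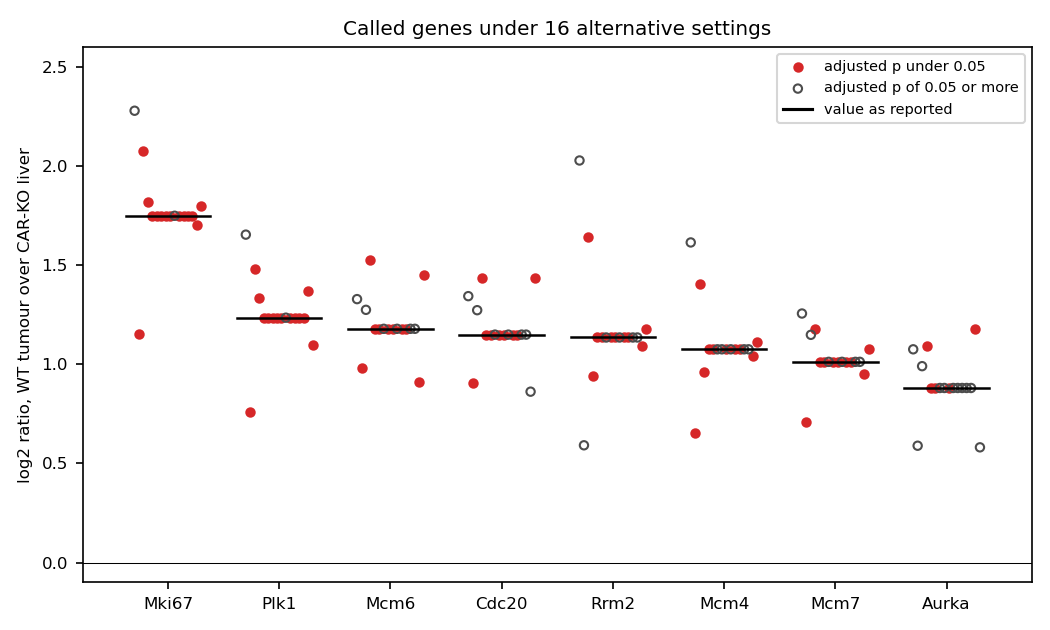
Log2 ratio of WT tumour over CAR-KO liver (y axis) for the 8 called genes (x axis) under 16 alternative settings, filled where the adjusted p was under 0.05, with a line at the reported value. All points lie above 0, and Plk1 and Mki67 have 2 open points each.

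Other cell types were read beside these results. The cholangiocyte marker Krt19 had a ratio of 1.13 ± 0.16 (adjusted p = 0.0135) as 1 of 4 measured markers of that type, and summed cholangiocyte intensity was 723 and 769 in WT tumour, against 674 and 792 in CAR-KO liver. Among 3 measured erythroid markers, Hba-a1 fell by 1.09 on the log2 scale (adjusted p = 0.0138), with summed intensities of 4861 and 5391 in WT tumour, against 10300 and 11180 in CAR-KO liver. Lymphocyte markers summed to 1726 and 1526 in WT tumour, against 1818 and 1933 in CAR-KO liver, and 0 of 7 passed. Most of that sum was Cd3e, with a ratio of -0.38, while 5 of the 7 ratios were positive and their median was 0.07. In the tumour pair each marker of these 3 lists was above background in every channel, except Ptprc in CAR-KO liver on array 2. No marker of the macrophage (4 measured), endothelial (5), stellate cell and fibroblast (3) or neutrophil (4) lists passed. Their median ratios were 0.10, -0.05, -0.02 and -0.18. The highest macrophage ratio was 0.72, and the smallest adjusted p of that list was 0.0722 (limma). The part of any of these cell types in the member ratios was not tested.

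Promoters of called genes were searched for 3 motifs known from cell cycle genes. These were the E2F site (TTTGGCGC, TTTCCCGC, TTTCGCGC or TTTGCCGC), the cell cycle homology region CHR (TTTGAA or TTCGAA) and the CCAAT box (CCAAT), on both strands and in the 250 bases before each start. RefSeq windows on GRCm38.p6 were matched for 35 of the 42 members with a probe, and for 7 of the 8 called genes (not Mcm4). Aurka, also called, is not shown, and its 150 bases held 2 CCAAT boxes and no match to the other motifs. The 150 bases next to the start are shown for the other 6, because these genes were called higher together, with motifs in capitals on either strand. For Mcm7 they are the bases before the first of its 2 starts.
Mcm6, chr1:128359706-128359855, minus strand: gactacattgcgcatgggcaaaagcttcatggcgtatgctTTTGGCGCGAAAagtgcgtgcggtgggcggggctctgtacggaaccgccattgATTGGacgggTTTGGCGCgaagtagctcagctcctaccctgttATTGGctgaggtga
Mcm7, upstream of 2 starts, chr5:138171884-138172033, minus strand: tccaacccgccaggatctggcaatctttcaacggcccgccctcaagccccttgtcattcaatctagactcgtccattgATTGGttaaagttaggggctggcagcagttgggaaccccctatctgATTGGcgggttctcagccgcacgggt
Rrm2, chr12:24708104-24708253, plus strand: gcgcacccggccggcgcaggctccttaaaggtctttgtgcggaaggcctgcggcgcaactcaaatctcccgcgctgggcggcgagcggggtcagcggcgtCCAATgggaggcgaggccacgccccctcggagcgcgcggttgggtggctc
Plk1, chr7:122159285-122159434, plus strand: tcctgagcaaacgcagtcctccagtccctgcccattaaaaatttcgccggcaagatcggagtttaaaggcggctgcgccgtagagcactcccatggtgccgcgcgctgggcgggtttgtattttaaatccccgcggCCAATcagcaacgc
Mki67, chr7:135716380-135716529, minus strand: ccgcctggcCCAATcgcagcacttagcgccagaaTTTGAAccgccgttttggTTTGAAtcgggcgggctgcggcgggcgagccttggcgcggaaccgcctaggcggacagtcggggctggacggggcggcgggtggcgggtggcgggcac
Cdc20, chr4:118437344-118437493, minus strand: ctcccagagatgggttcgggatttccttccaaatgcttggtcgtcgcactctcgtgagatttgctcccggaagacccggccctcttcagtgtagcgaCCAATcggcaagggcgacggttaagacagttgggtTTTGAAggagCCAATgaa

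In Mcm6 the first capital run holds a pair of overlapping E2F matches, one on each strand, and another match lies closer to the start. Mki67, Cdc20 and, upstream of the bases shown, Mcm7 held a CHR motif, 3 of 7 called genes, as did 7 of the 28 members not called. All 7 called genes with a window held a CCAAT box, as did 17 of the 28 members not called. An E2F match was found in 2 of 7 called and 5 of 28 other members, and the one of Mcm7 lies upstream of the bases shown. CCAAT occurred in 64.1% of 39 member windows, against 33.85% of all 32851 windows in the table. E2F matches occurred in 17.9%, against 1.86%, and CHR in 25.6%, against 17.1%. A gene can have more than 1 window, the motifs were chosen for such genes, and a match is a run of letters, not a bound site.

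Loss of CAR in non-tumour liver moved no member past the test. In CAR-KO over WT liver after DEN and PB, 0 members were higher and 0 lower, where 0.00964% and 0.0916% of all probes were, and at an unadjusted p under 0.05 also 0 members passed, where 0.458% and 1.81% of all probes did. These ratios run opposite to the WT over CAR-KO direction in which the study looked for CAR-dependent genes. The median member ratio was -0.01, against 0.02 over all probes. The highest ratios were those of Ccne1, 0.19 ± 0.18 (0.07 and 0.31 on the arrays), and Ccnd2, 0.18 ± 0.17 (0.32 and 0.05). The lowest were those of Kif20a, -0.49 ± 0.29 (-0.85 and -0.13), and Mcm6, -0.39 ± 0.17 (-0.44 and -0.34). Of the other genes called in WT tumour over CAR-KO liver, Plk1 had -0.22 ± 0.16, Mcm4 -0.28 ± 0.15, Mcm7 -0.04 ± 0.15 and Rrm2 -0.20 ± 0.17. Cdc20 had -0.39 ± 0.17, Aurka -0.13 ± 0.18 and Mki67 -0.17 ± 0.15. A missed threshold does not show that CAR-KO and WT liver were alike.

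Phenobarbital in CAR-KO liver also gave 0 members higher and 0 lower, as for all probes (0% in both directions). The median member ratio was -0.02, against -0.01 over all probes. At an unadjusted p under 0.05 only Tk1 passed (limma, 2.86% of members, against 2.21% of all probes higher and 0.516% lower), with a ratio of 0.62 ± 0.21, of which array 2 gave 1.08 and array 1 gave 0.17. Lig1 came next with 0.31 ± 0.18 (-0.15 and 0.78). Birc5, with no value on 1 array of this pair and 1 of the CAR-KO and WT pair, had the lowest fit, -0.17 ± 0.30, although the array that measured it gave 0.12. The fit of a gene with a missing array depends on the dye term, so its sign is not a measured one. Most members, 24 of 33 with both values, had opposite signs on the arrays. The same held for most of all probes, of which 18.8% were positive on both arrays and 18% negative on both.

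Tumour was set against WT liver only through the CAR-KO liver they share. By this sum of ratios, 0 of 35 members were higher and 0 lower (limma, 0% of all probes in both directions), with a smallest adjusted p of 0.327. At an unadjusted p under 0.05, 9 members were higher and 0 lower, against 4.53% and 3.85% of all probes. The median member ratio was 0.23, against -0.01 over all probes. Plk1 had 1.02 ± 0.22 and Mcm7 0.97 ± 0.22, the highest, and Cdc45 -1.26 ± 0.59 and E2f1 -1.11 ± 0.54 the lowest. Mki67 had 1.58 ± 0.21 (adjusted p = 0.137). Without array 1 of the tumour pair Ccnb2 passed, and without array 2, 4 members were higher (Ccne1, Kif20a, Mcm6 and Mcm7) and 3 lower (Cdc45, E2f1 and Top2a). Of all probes 0.588% were higher without array 1, and 2.06% higher and 8.38% lower without array 2, so the share of members lower was near that of all probes.

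**Figure D4:**
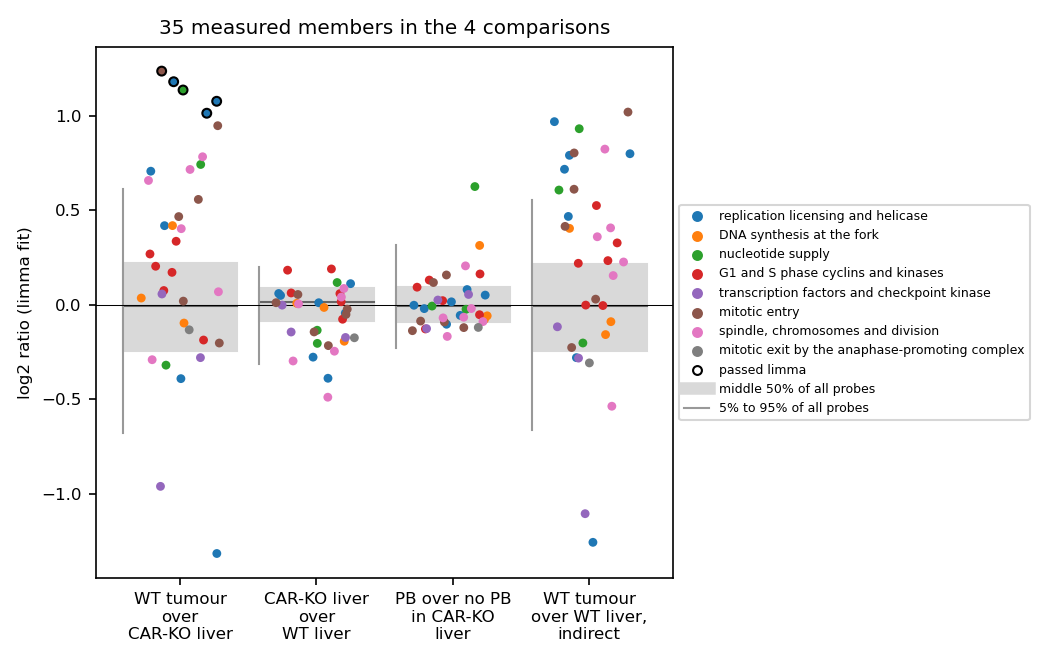
Fitted log2 ratio (y axis) of the 35 members, coloured by role, in the 4 comparisons (x axis), with the middle 50% (box) and the 5% to 95% range (line) of all probes. Only tumour over CAR-KO liver has members with a black ring (5 of 35), and in the PB comparison Tk1 lies highest at 0.62.

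Beyond the members, 63 of 91 other cell cycle and replication genes were measured. In WT tumour over CAR-KO liver 6 of them rose and 0 fell, where 2.53% and 0.839% of all probes did. Of the ratios 45 were positive (71.4%, against 49.4% of all probes), and the median was 0.26, against -0.01. Those that rose were Ect2, an activator of cytokinesis, at 1.49 ± 0.17 (adjusted p = 0.00482), Cdca3 at 1.46 ± 0.15, the centrosome kinase Nek2 at 1.23 ± 0.16, Incenp at 1.10 ± 0.17, Gmnn (geminin, a brake on licensing) at 0.84 ± 0.17 and the centromeric histone Cenpa at 0.79 ± 0.15. Ccnd1, the D-type cyclin most studied in liver growth, had 0.88 ± 0.28 (adjusted p = 0.132), with 0.06 on array 1 and 1.71 on array 2. In the other 3 comparisons 0 of the 63 passed. Of all probes 0.00964% were higher and 0.0916% lower in CAR-KO over WT liver, and 0% in the rest.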

How the data were processed

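Per the labels, total RNA was labelled with Cy3 or Cy5 and hybridised to 2-colour arrays. The deposited scanner files hold mean and background intensity per spot as the authors read them, without normalization, and intensity processed by Agilent Feature Extraction (7.1.1 on 5 arrays and 7.5.1 on 1, per the file headers, and 7.5 per the submitters' processing notes). The deposited log10 ratio (red over green) and the p-value of the software's error model were not used for calls, and other deposited columns are spot flags.

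Intensities were corrected with normexp (offset 50) and normalised by loess within arrays in limma 3.58.1 (R 4.3.3). Outlier-flagged spots were set missing, ratios turned to the first-named group, and spots of a probe averaged (22393 spots, 1075 controls, 20868 probes). Testing required a signal well above background in 1 channel or both on 2 or more arrays. One limma fit over 6 arrays held 3 comparisons and a dye effect, with 2 residual and 5.48 prior degrees of freedom. Calls were made at 0.05 after Benjamini-Hochberg adjustment across the tested probes. A fitted ratio is the mean of its 2 arrays where both have a value, and single-array ratios still hold the dye effect. Printed intensities had loess and Aquantile scaling. On simulated data, 89% of probes with a log2 change of 1 and 100% with 2 were recovered in tumour over CAR-KO liver. There were 15 false calls over 20744 probes. The simulated noise was independent and normal, with equal spread on all 6 arrays. In the data the tumour pair had the lowest array weights (0.50, against 1.25 and 1.59), so the recovery may be overstated.

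The members, lists and motifs were chosen with earlier results of these data known. Every measured member is named, with array ratios for those called and for the 2 highest and 2 lowest per direct comparison (the indirect one has no arrays of its own), except that 1 member, among the lowest for PB, is in the counts and medians but its own values are not reported here. The probes named in words were added after seeing the data. Alternatives varied background, scaling, filter, dye term, variance prior, array weights and the arrays kept.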

Additional observations from a re-analysis of the deposited data

How the results depend on the processing

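RNAs sharing an array were compared within it, and the dye-swapped arrays of a pair were fitted together. Arrays were not paired across comparisons, because the replicate numbers follow accession order only. Averaging several probes per gene was not run, since each of the 35 members had 1 probe, and the 2 probes of Tyms, kept apart, are given singly in the text. Of 204 alternative values of the counts and medians, 167 held and 37 moved. None turned a call round, and the member median of PB over no PB, near 0 as reported, changed sign without its array 2. A ratio here rests on 2 arrays per comparison, and its p-value on a spread that the comparisons share. Probes near background (Cdc45, E2f1, Cdc6) have little signal to compare.

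In WT tumour over CAR-KO liver, members called higher numbered 0 with Agilent-processed signals, 3 with normexp offset 16 and 11 with median centring (and 2 lower). They numbered 1 with array weights, 0 with the pair alone and 8 with the probes named in words added. Of all probes 0% were higher with Agilent-processed signals, 1.18% with offset 16 and 11.4% with median centring (8.5% lower). The share was 0.954% with array weights and 0.255% with the pair alone. Leaving out one array gave 1 to 10 higher and 0 to 5 lower. The median member ratio was 0.43 with Agilent-processed signals, 0.18 without background subtraction, 0.36 with offset 16, 0.31 with median centring, 0.42 with both channels above background on all arrays, 0.20 with a trended robust prior, 0.30 with the words-named probes and 0.22 to 0.27 without one array. All probes called numbered 524 higher and 174 lower as reported, 2370 and 1763 with median centring, and 1798 and 2909 without tumour array 2.

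The median for CAR-KO over WT liver was -0.0699 to -0.0146 without one array. For PB over no PB it was -0.0849 with Agilent-processed signals, -0.0433 with offset 16, -0.0566 with both channels above background, -0.0387 with words-named probes and -0.0896 to 0.0524 without one array. For tumour over WT liver it was 0.41 with Agilent-processed signals, 0.16 without background subtraction, 0.30 with offset 16, 0.34 with median centring, 0.36 with both channels above background and 0.23 to 0.31 without one array, when 0 to 4 members were higher and 0 to 3 lower. The cause of these shifts was not tested.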
